A study of Arabidopsis thaliana with 18 samples.

Results

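Class III peroxidases are secreted haem enzymes that use hydrogen peroxide to oxidise phenolic substrates in the plant cell wall. They couple monolignols into lignin, cross-link extensins and other wall components, and can also generate or remove reactive oxygen species. In roots, members of the family are known for lignin of the xylem, for the Casparian strip of the endodermis, for root hair growth and for defence. The genes described here are the Arabidopsis thaliana family without its TOLS2-induced and root hair members, listed by locus. Of the 58 listed genes, 53 had a probe set that the platform annotation assigns to that gene alone, out of 16540 genes measured in this way. Each of the 53 was represented by the probe set with its highest mean over 18 arrays. The other 5 listed genes, AT1G05260 (RCI3), AT1G14540 (PER4), AT3G49120 (PRXCB), AT5G06720 (PA2) and AT5G42180 (PER64), were not analysed here. The 5 family members left out as TOLS2-induced were set aside with their wild-type response known. Counts of TOLS2 responses below are therefore counts for this list and not for the family.

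The study measured RNA of root tips on single-colour oligonucleotide arrays. Seedlings of wild type and of the mutant lines rlk7-3 and puchi-2, 5 days old, were placed for 3 h on medium with 1 µM of the peptide TOLS2 or without peptide (control), and about 80 tips of about 1 cm were pooled for each sample. The lines are named for RLK7, a receptor-like kinase, and for PUCHI, an AP2/ERF-type regulator of lateral root development. The 6 groups held 3 arrays each, which the labels call biological replicates, and nothing else in the labels says how the cultures were separated, so p-values measure the spread between these samples. No probe set was named for RLK7. The PUCHI signal was 4.56 ± 0.37 (SD, n = 3) on wild-type control arrays and 5.31 ± 0.23 on puchi-2 control arrays, so it does not check the mutant label.

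Signals are log2 expression values as deposited, normalized across arrays by RMA, so a difference of 1 is a 2-fold change. Differences were fitted with limma over all 17481 probe sets with at least 1 gene, with 3 arrays in each group. A peroxidase is called where its Benjamini-Hochberg adjusted p over those probe sets was under 0.05. All adjusted p-values below are from this fit. The lowest correlation between arrays of a group was 0.992. The second principal component, with 12.5% of the variance, set the replicate 1 arrays apart within their groups. In pooled root tips, fewer cells of a type and less RNA per cell cannot be told apart. No marker of the root tip, the xylem or the root cap was measured. The root hair markers EXPA7 and EXPA18, 2 of 5 listed, were called in 0 of the 9 comparisons. The shoot marker RCA, 1 of 3 listed, fell with TOLS2 in wild type from 7.95 ± 0.16 to 7.30 ± 0.15 (adjusted p = 0.0355). Its TOLS2 difference was −0.51 in puchi-2, where the groups did not overlap (adjusted p = 0.117), and 0.03 in rlk7-3 (adjusted p = 0.978). The part of RCA-bearing cells in the responses below was not tested.

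Mean signals of the 53 peroxidases ran from 2.66 to 12.71. The mean over 18 arrays lay above the median of all tested probe sets (6.03) for 30 peroxidases and below it for 23. The highest 10% of probe sets held 17 of the 53, and the lowest 25% held 10. Probe sets bind their targets with different strength, so this order is one of signals and not of transcript amounts.

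The brightest peroxidase was AT3G32980, a close relative of the peroxidases PRXCA and PRXCB of the pathogen-induced oxidative burst. Its mean was 12.71, above 99.9% of tested probe sets, and its 18 arrays ran only from 12.62 to 12.82. PRXR1 (AT4G21960) followed at 12.51, with arrays from 12.39 to 12.60. These genes also had the tightest replicates among the 53, with pooled within-group SDs of 0.0484 and 0.0543. PRX72 (AT5G66390), a peroxidase of lignin and of the Casparian strip, had a mean of 11.97. AT3G21770 (11.91), AT2G18980 (11.78) and AT4G33420 (11.57), the last a peroxidase of xylem lignin, completed the 6 brightest. None of these 6 was called for a TOLS2 response in any genotype. Nearest to a call was AT4G33420 in wild type (log2 difference 0.31, adjusted p = 0.213). Its arrays stood at 11.55, 11.53 and 11.64 without and 11.74, 11.96 and 11.94 with TOLS2, with no overlap. In wild type, treated and control arrays did not overlap for 16 of the 53 peroxidases (30.2%) and for 18.7% of all probe sets. At the other end lay AT3G17070 (2.66), PRXCA (AT3G49110, 2.76), AT4G31760 (2.88) and AT5G58390 (2.91), with 11.0% to 14.3% of tested probe sets below them. PRXCA acts in the apoplastic oxidative burst, and its 18 arrays ran from 2.10 to 3.53.

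**Figure D1:**
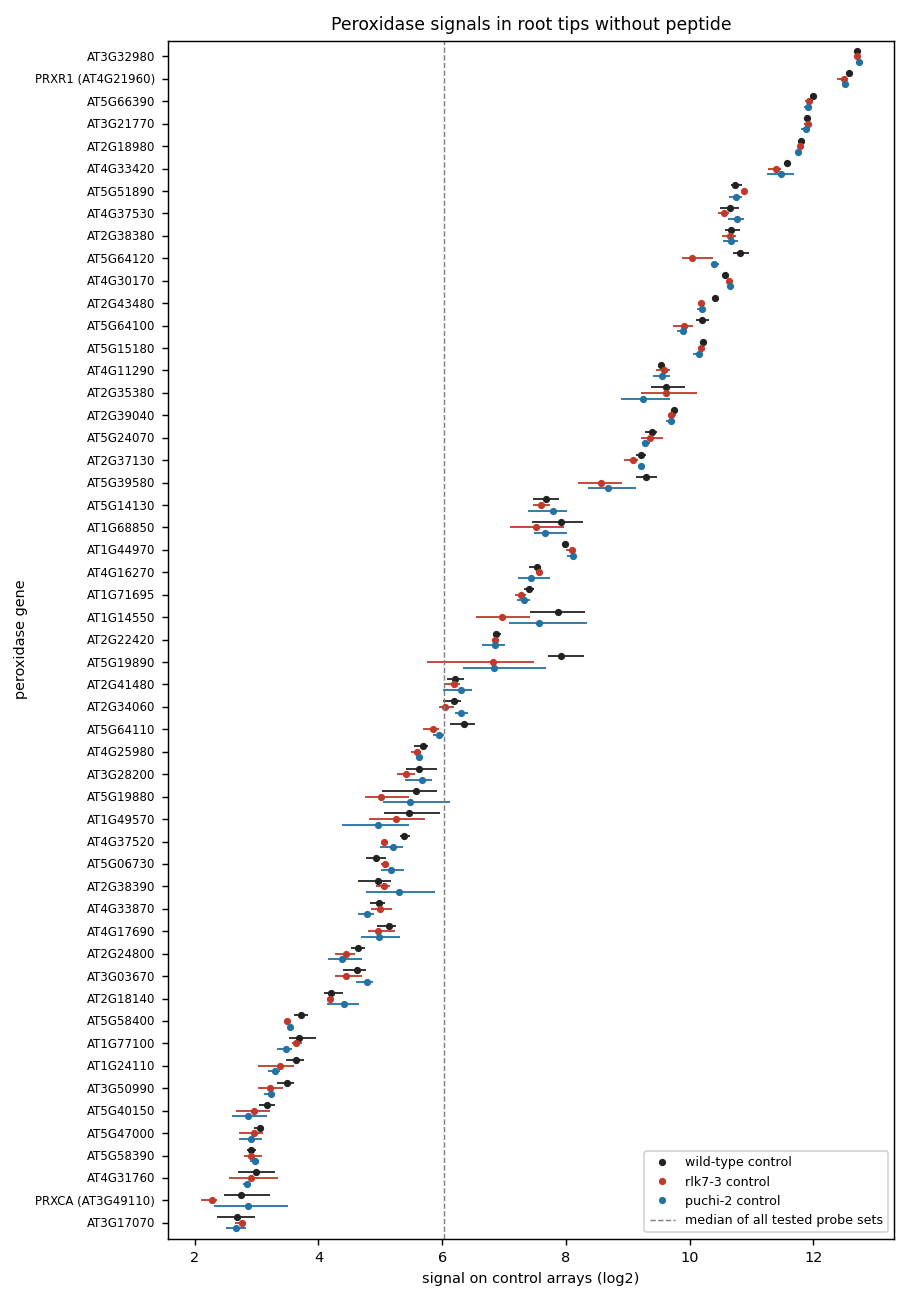
Signal (log2) of the 53 peroxidases on control arrays of wild type, rlk7-3 and puchi-2, ordered by the mean of 18 arrays. Points are means of 3 arrays and bars run from the lowest to the highest array; the dashed line is the median of all tested probe sets, 6.03. For AT5G64120 (PRX71) the wild-type arrays lie above those of both mutants, which overlap.

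Replicate spread differed widely between peroxidases and set what could be seen. The median pooled SD was 0.17 for the peroxidases and 0.158 for all tested probe sets. The largest SDs belonged to AT5G19890 (0.706), AT1G49570 (0.566) and AT1G14550 (0.477). The median half-width of the 95% confidence interval of a TOLS2 response was 0.219 for the 30 brighter peroxidases and 0.392 for the 23 dimmer ones. Of the dimmer 23, only AT5G19880 was called in any of the 9 comparisons.

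The response to TOLS2 in wild type asks which of these peroxidases the peptide altered within 3 h. AT5G14130, AT1G68850 and PRX71 (AT5G64120), a peroxidase of lignin deposition, rose, while AT5G15180 and AT2G39040 fell. That is 5 of 53 peroxidases called, 3 higher and 2 lower. Among all tested probe sets 1.84% were called, 1.15% higher and 0.686% lower. Since TOLS2-induced members had been taken off the list, nothing is read from the ratio of these shares. The remaining 48 peroxidases were not called, with differences from −1.67 (AT5G19890) to 0.54 (AT5G06730). The median response over all 53 was −0.04, as over all probe sets (−0.04).

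AT5G14130 had signals of 7.68, 7.47 and 7.90 on wild-type control arrays and of 9.66, 9.23 and 9.26 with TOLS2. Every treated array lay above every control array. The rise was 3.25-fold (log2 difference 1.70, SE 0.22, adjusted p = 0.000455). AT1G68850 stood at 8.27, 7.45 and 8.03 without and at 9.23, 9.39 and 9.44 with the peptide. Its groups did not overlap either, and the treated arrays lay closer together than the control arrays. This rise was 2.71-fold (1.44, SE 0.26, adjusted p = 0.00743). Both rises exceed that of Prx37, 0.80 on the log2 scale, the smallest among the 5 induced members set aside. PRX71 moved from 10.80, 10.70 and 10.95 to 11.38, 11.62 and 11.58. It was already bright without peptide, and all treated arrays were higher (log2 difference 0.71, SE 0.16, adjusted p = 0.0335).

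AT5G15180 showed the smallest p among the 53 in wild type. Its control arrays were at 10.23, 10.24 and 10.17 and its treated arrays at 9.33, 9.22 and 9.21. The SDs within these groups were 0.04 and 0.06, so the fall was far larger than the spread between replicates (log2 difference −0.96, SE 0.10, adjusted p = 4.86e-05, 1.94-fold lower). AT2G39040 fell by less, from 9.73, 9.74 and 9.76 to 9.5, 9.31 and 9.3 (log2 difference −0.38, SE 0.08, adjusted p = 0.0287). The calls of AT5G14130, AT5G15180 and AT1G68850 held without any 1 wild-type array. Those of AT2G39040 and PRX71 ended without control replicate 1, 2 or 3 and without TOLS2 replicate 2 or 3, with adjusted p from 0.0774 to 0.134 and from 0.0601 to 0.15, which left a count of 3.

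Peroxidases next in order were not called in wild type. For AT4G11290, a Casparian strip peroxidase, the difference was 0.27 (adjusted p = 0.103). Its control arrays were at 9.54, 9.51 and 9.54 and its treated arrays at 9.74, 9.78 and 9.89. These groups did not overlap, as for 18.7% of all probe sets. AT1G71695 differed by 0.30 (adjusted p = 0.132) and AT2G22420, a peroxidase of lignified tissues, by 0.43 (adjusted p = 0.139). Some alternative fits did call the first 2 of these 3 genes. AT4G11290 was called with an intensity trend and robust prior (adjusted p = 0.0337) and over brighter probe sets only (0.0386). AT1G71695 was called with array weights (0.0353) and with the replicate number as a block (0.0094). AT5G19890 had the widest error of the 53. Its signals were 8.29, 7.72 and 7.77 without and 5.11, 6.90 and 6.76 with TOLS2, a difference of −1.67 with an SE of 0.52 (adjusted p = 0.151). TOLS2 replicate 1 was the low array, and the SD of the treated group was 0.996 against 0.32 in the controls. Over the whole list, 6 of 53 responses were larger than 0.5 in size (11.3%), against 3.35% of all probe sets.

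**Figure D2:**
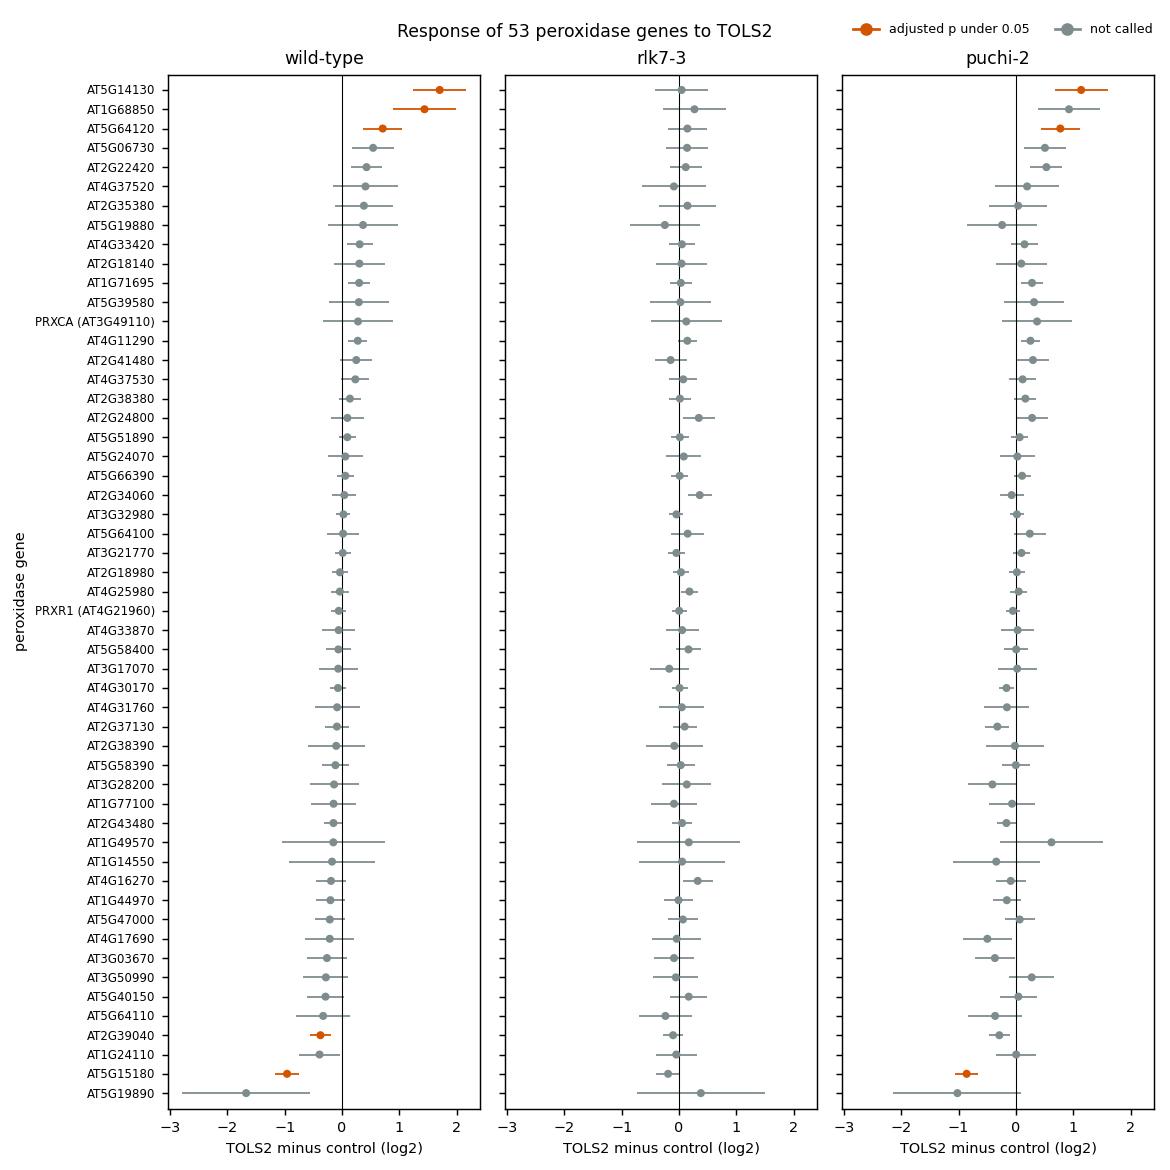
Log2 difference between TOLS2 and control arrays for the 53 peroxidases in wild type, rlk7-3 and puchi-2, in the order of the wild-type values. Points are limma estimates from 3 arrays in each group with 95% confidence intervals; coloured points have an adjusted p under 0.05. There are 5 coloured points in wild type, 0 in rlk7-3 and 3 in puchi-2, and the rlk7-3 points lie between −0.25 and 0.38.

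In rlk7-3, no peroxidase was called with TOLS2 (0 of 53). Over all probe sets 0.00572% were called. An unadjusted p under 0.05 was reached by 7.18% of all probe sets in either direction, and 6.12% were higher. A similar share of the peroxidases passed, 4 (7.55%), all higher. These were AT2G34060 (log2 difference 0.36, adjusted p = 0.326), AT4G16270 (0.33, 0.576), AT2G24800 (0.34, 0.592) and AT4G25980 (0.18, 0.616). Responses ran from −0.25 to 0.38, and none of the 53 exceeded 0.5 in size. The 5 genes called in wild type had differences of 0.04 for AT5G14130, 0.27 for AT1G68850, 0.15 for PRX71, −0.19 for AT5G15180 and −0.10 for AT2G39040. AT5G15180 alone of these had groups that did not overlap, at 10.15, 10.22 and 10.18 without and 9.90, 10.02 and 10.05 with TOLS2 (adjusted p = 0.718). Over all probe sets, 12.2% had rlk7-3 groups without overlap.

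Whether the response differed from that of wild type was tested as the interaction of genotype and treatment. Responses of AT5G14130 and AT5G15180 in rlk7-3 differed from those in wild type, 2 of 53 peroxidases. Among all probe sets 0.383% were called, 0.109% with a higher and 0.275% with a lower response. AT5G14130 rose on wild-type arrays and stayed at 8.10, 7.33 and 7.51 on rlk7-3 TOLS2 arrays, against 7.75, 7.59 and 7.47 on rlk7-3 control arrays. The rlk7-3 groups overlapped, and the difference between the responses was −1.66 (SE 0.31, adjusted p = 0.0299). For AT5G15180 the difference was 0.77 (SE 0.13, adjusted p = 0.0217), from falls of 0.96 in wild type and 0.19 in rlk7-3, the latter not called. Both calls lie near the threshold. That of AT5G14130 ended without wild-type control replicate 1 or 2, any wild-type TOLS2 array, rlk7-3 control replicate 1 or 2, or rlk7-3 TOLS2 replicate 2 or 3 (adjusted p from 0.0562 to 0.0897), and that of AT5G15180 without wild-type control replicate 1 or 2, wild-type TOLS2 replicate 2 or 3, rlk7-3 control replicate 1 or 3, or rlk7-3 TOLS2 replicate 2 or 3 (0.0505 to 0.0641). The estimates stayed between −1.88 and −1.50 and between 0.70 and 0.83 under every alternative run for single genes.

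Other wild-type responders did not pass this test. AT1G68850 had an interaction of −1.17 (95% confidence interval half-width 0.77, adjusted p = 0.249), PRX71 of −0.56 (half-width 0.48, adjusted p = 0.39) and AT2G39040 of 0.27 (half-width 0.25, adjusted p = 0.433). Their responses are not shown to differ between the genotypes, nor to be alike. AT4G16270 (0.52, adjusted p = 0.276), which acts with AT1G44970 in extensin cross-linking of the tapetum, and AT5G19890 (2.05, adjusted p = 0.339) were next in order.

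In puchi-2, TOLS2 changed AT5G15180, AT5G14130 and PRX71. These are 3 of 53 peroxidases, 2 higher and 1 lower, where 1.6% of all probe sets were called, 0.898% higher and 0.698% lower. AT5G14130 had signals of 7.39, 7.97 and 8.01 without and 9.27, 8.74 and 8.77 with TOLS2. The groups did not overlap, and the rise was 2.20-fold (log2 difference 1.14, SE 0.22, adjusted p = 0.0143). AT5G15180 was at 10.22, 10.19 and 10.05 without and at 9.02, 9.41 and 9.44 with the peptide, a fall of 0.86 (SE 0.10, adjusted p = 0.000176). PRX71 moved from 10.47, 10.35 and 10.35 to 10.92, 11.12 and 11.45 (0.77, SE 0.16, adjusted p = 0.0237). Its treated arrays again lay above all control arrays. The call of AT5G14130 ended without replicate 1 of the control (adjusted p = 0.082) or TOLS2 arrays (0.0635), and that of PRX71 without any 1 puchi-2 array except TOLS2 replicate 1 (0.0572 to 0.1). The count of 3 became 1 without control replicate 1 and 2 without control replicate 2 or 3 or TOLS2 replicate 1.

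AT2G22420 (0.53, adjusted p = 0.0572), AT1G68850 (0.92, adjusted p = 0.0967), AT2G39040 (−0.29, adjusted p = 0.107) and AT2G37130 (−0.33, adjusted p = 0.131) were not called in puchi-2. For all 4 genes, treated and control arrays of puchi-2 did not overlap. Such groups were seen for 14 of the 53 peroxidases (26.4%) and for 17.2% of all probe sets. AT1G68850, for example, stood at 7.49, 8.02 and 7.49 without and at 8.76, 8.27 and 8.74 with TOLS2. AT2G22420 was called after a second quantile normalization (adjusted p = 0.0433), with centred arrays (0.049), with an intensity trend and robust prior (0.0241), over brighter probe sets only (0.0228) and without puchi-2 TOLS2 replicate 2 (0.0428). A size above 0.5 was reached by 9 of 53 responses (17%), against 3.49% of all probe sets. The interaction with genotype was called for 0 of 53 peroxidases and for 0% of all probe sets. At an unadjusted p under 0.05 there was 1 peroxidase, where 4.05% of all probe sets passed. That gene was PER36 (AT3G50990), which acts in release of seed coat mucilage, with an interaction of 0.56 (adjusted p = 1). For AT5G14130 the puchi-2 response was smaller by 0.57 with a half-width of 0.65 (adjusted p = 1), and for AT5G15180 the interaction was 0.10 with a half-width of 0.29. The wild-type and puchi-2 responses rest on separate arrays, and a difference between them was not detectable here.

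**Figure D3:**
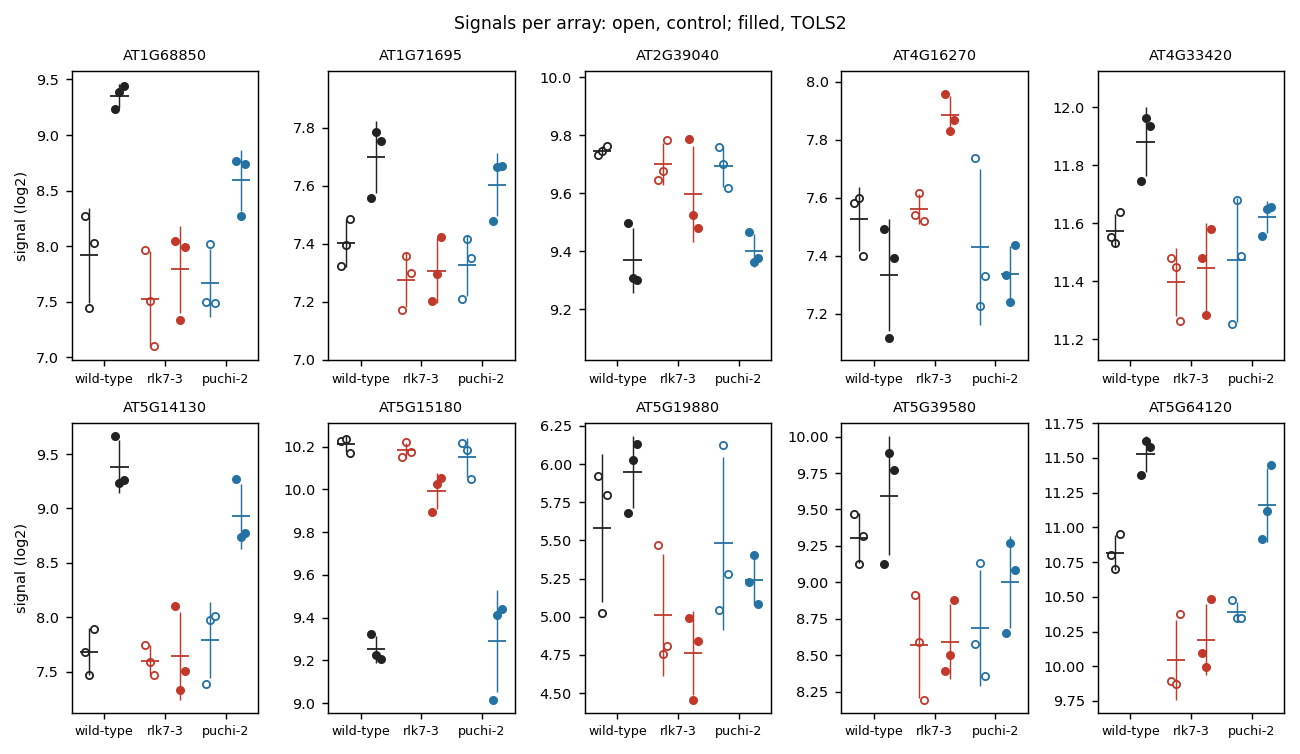
Signals (log2) on each array for the 10 peroxidases called in at least 1 comparison, by genotype. Open circles are control and filled circles TOLS2 arrays, horizontal lines are means and vertical bars the SD of 3 arrays; the vertical axes start at different values and each spans at least 1. For AT5G14130 and AT5G15180 the filled circles separate from the open ones in wild type and puchi-2 by more than in rlk7-3.

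Without peptide, the mutants were compared with wild type for basal differences. In rlk7-3 none of the 53 peroxidases was called, and 0.0515% of all probe sets were. At an unadjusted p under 0.05 there were 7 peroxidases (13.2%), all lower. Over all probe sets 7.4% passed in either direction and 4.72% were lower. PRX71 came first. Its control signals were 9.89, 9.87 and 10.38 in rlk7-3 and 10.80, 10.70 and 10.95 in wild type, with no overlap (log2 difference −0.77, SE 0.16, adjusted p = 0.146). AT5G39580, which is linked to defence and to root hair growth in the cold, was at 8.91, 8.59 and 8.19 against 9.47, 9.13 and 9.31 (−0.74, adjusted p = 0.497). AT2G43480 differed by −0.23 (adjusted p = 0.511) and AT1G14550, an elicitor-induced peroxidase, by −0.90 (adjusted p = 0.59), the latter with overlapping groups. The other 3 were AT5G64110 (−0.50), AT5G58400 (−0.23) and AT5G64100 (−0.28). Largest in size was the difference of AT5G19890, not among these 7 (−1.11, not called). Its signals were 7.21, 7.49 and 5.75 in rlk7-3 and 8.29, 7.72 and 7.77 in wild type, without overlap.

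The rlk7-3 control values lay below wild type for 42 of the 53 peroxidases (79.2%), against 55.1% of all probe sets. The median difference was −0.09, and −0.02 over all probe sets. All 3 rlk7-3 arrays lay below all 3 wild-type arrays for 11 peroxidases, where 9.46% of all probe sets did so. They lay above for 2, AT4G30170 and AT5G51890, where 5.98% of all probe sets did so. The count below wild type was 44 with arrays centred on their medians, where 60.1% of all probe sets lay below. It was 45 without the replicate 1 arrays, where 56% of all probe sets did.

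In puchi-2 control arrays 0 of 53 peroxidases and 0.0172% of all probe sets were called. An unadjusted p under 0.05 was reached by 4 peroxidases (7.55%), all lower. Over all probe sets 6.25% passed in either direction and 3.28% were lower. PRX71 was again first, at 10.47, 10.35 and 10.35 against the wild-type values given above (−0.43, SE 0.16, adjusted p = 0.713). AT2G43480 (−0.21), AT5G39580 (−0.61) and AT5G64100 (−0.30), a further peroxidase of root hair growth in the cold, were the others. AT5G19890, not among these 4, again had the largest difference in size (−1.09, not called). Below wild type lay 37 of 53 peroxidases (69.8%), against 51.2% of all probe sets. This count was 38 with centred arrays, where 57.5% of all probe sets lay below. It fell to 30 without the replicate 1 arrays, where 53.3% of all probe sets did. Of the peroxidases, 9 had all puchi-2 arrays below all wild-type arrays, where 6.73% of all probe sets did so, and only AT4G30170 had them above, where 6.44% did so. Both mutants were compared with the same 3 wild-type control arrays, so their control differences are not independent.

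With TOLS2 present, 9 of the 53 peroxidases differed between rlk7-3 and wild type, 2 higher and 7 lower in rlk7-3. Among all probe sets 4.21% were called, 2.29% higher and 1.92% lower. This comparison uses the wild-type TOLS2 arrays that also define the response above. PRX71 had the smallest p, at 10.10, 9.99 and 10.48 in rlk7-3 against 11.38, 11.62 and 11.58 in wild type (log2 difference −1.33, SE 0.16, adjusted p = 0.000167, 2.52-fold lower). AT5G14130 was 3.34-fold lower (−1.74, SE 0.22, adjusted p = 0.000248) and AT1G68850 was 2.96-fold lower (−1.56, SE 0.26, adjusted p = 0.00245). AT5G15180 was higher in rlk7-3, by 0.74 (SE 0.10, adjusted p = 0.00033). These 4 calls held without any 1 array of the groups compared.

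The other 5 calls were lost when single arrays were left out. AT4G16270 was at 7.96, 7.83 and 7.87 in rlk7-3 and at 7.49, 7.12 and 7.39 in wild type (0.55, SE 0.12, adjusted p = 0.0177). Here the rlk7-3 arrays were the high ones among the 6 groups. AT1G71695 stood at 7.20, 7.30 and 7.42 against 7.56, 7.79 and 7.75 (−0.39, adjusted p = 0.0221). AT4G33420 stood at 11.48, 11.28 and 11.58 against 11.74, 11.96 and 11.94 (−0.43, adjusted p = 0.0334). For both genes the groups did not overlap, as for 23.9% of all probe sets. AT5G39580 was at 8.39, 8.50 and 8.88 against 9.13, 9.89 and 9.77 (−1.0, adjusted p = 0.0342). AT5G19880 was at 4.99, 4.46 and 4.84 against 5.68, 6.03 and 6.13 (−1.18, adjusted p = 0.0301). Without wild-type TOLS2 replicate 2 the count was 4, and all 5 of these calls were lost (adjusted p from 0.0946 to 0.147). It was 5 without wild-type TOLS2 replicate 3, rlk7-3 TOLS2 replicate 1 or rlk7-3 TOLS2 replicate 2.

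None of the 53 peroxidases was called between puchi-2 and wild type with TOLS2, where 0.0744% of all probe sets were. An unadjusted p under 0.05 was reached by 9 (17%), all lower in puchi-2. Over all probe sets 8.66% passed in either direction and 3.93% were lower. AT2G35380 was at 9.29, 9.33 and 9.25 in puchi-2 and at 9.81, 10.15 and 10.05 in wild type (−0.72, adjusted p = 0.375). AT1G68850 was at 8.76, 8.27 and 8.74 against 9.23, 9.39 and 9.44 (−0.76, adjusted p = 0.397). The groups of both genes did not overlap. That held for 6 of the 53 peroxidases (11.3%) and for 13.4% of all probe sets. AT2G43480 (−0.23, adjusted p = 0.423) and AT5G19880 (−0.71, adjusted p = 0.497) followed.

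**Figure D4:**
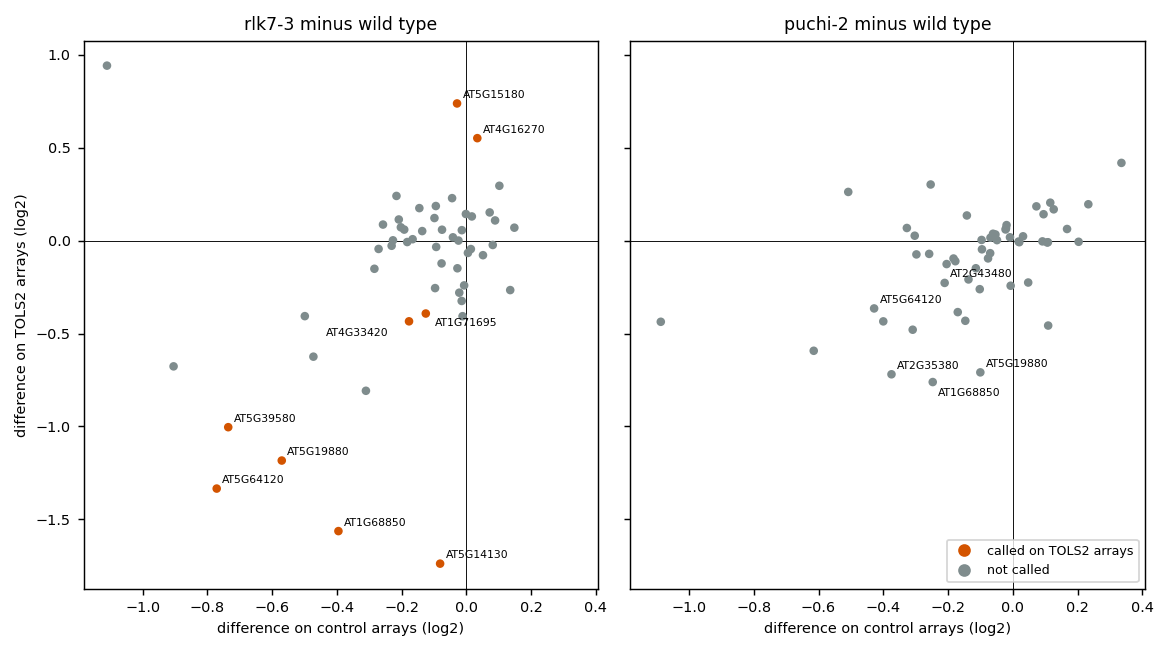
Difference of rlk7-3 (left) and puchi-2 (right) from wild type on control arrays (horizontal axis, log2) and on TOLS2 arrays (vertical axis, log2) for the 53 peroxidases. Each point is a limma estimate from 3 arrays in each group, and coloured points are called on TOLS2 arrays. There are 9 coloured points for rlk7-3, 7 of them below 0 on the vertical axis, and 0 for puchi-2; labels on the right mark genes with the smallest p.

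Grouped by known role, the 5 peroxidases of xylem and lignin were AT2G22420, PRX25 (AT2G41480), AT4G33420, AT5G51890 and PRX71. With TOLS2, PRX71 rose in wild type and in puchi-2 and no other member was called. The median response of the group was 0.31 in wild type, 0.05 in rlk7-3 and 0.30 in puchi-2. Over all probe sets it was −0.04, 0.06 and −0.01 in the same order. On TOLS2 arrays, PRX71 and AT4G33420 were called lower in rlk7-3 than in wild type, as were 1.92% of all probe sets. The call of AT4G33420 was lost in 6 of 15 alternative runs. PRX25 had signals of 6.28, 6.47 and 6.62 in wild type and 6.14, 6.02 and 5.99 in rlk7-3 with TOLS2 (−0.41, not called), and AT5G51890 differed by 0.07. Outside the family, the cinnamoyl-CoA reductase gene CCR2, 1 of 2 monolignol genes measured of 18 listed, rose by 0.55 in wild type (adjusted p = 0.0382) and by 0.56 in puchi-2 (0.0395). It was lower by 0.60 in rlk7-3 than in wild type with TOLS2 (adjusted p = 0.015). HCT, the other, was not called.

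Of 5 Casparian strip peroxidases, AT1G44970, AT4G11290 and PRX72 were measured and none was called in any of the 9 comparisons. PRX72 responded by 0.06 in wild type, 0.01 in rlk7-3 and 0.11 in puchi-2. AT1G44970 differed by −0.20, −0.01 and −0.16 in the same order, and AT4G11290 by 0.27, 0.14 and 0.25. The 2 partners of the Casparian strip machinery measured of 9 listed, the receptor kinase GSO1 and AT1G61590, were not called either.

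Of 7 peroxidases linked to defence, AT1G14550, AT3G32980, PRXCA and AT5G39580 were measured. None was called with TOLS2, and their median response was 0.15 in wild type. The median of these 4 in rlk7-3 control arrays was −0.60 relative to wild type, against −0.02 over all probe sets, and none was called. On TOLS2 arrays it was −0.65, against 0.09 over all probe sets. AT5G39580 alone was called, lower in rlk7-3, where 1.92% of all probe sets were called lower. PRXCA, 1 of the 4, had a mean signal of only 2.76. AT3G32980 differed by −0.07 to 0.03 over the 9 comparisons. AT1G14550 was at 8.31, 7.42 and 7.88 on wild-type and 7.42, 6.92 and 6.55 on rlk7-3 control arrays, with wide replicates in both.

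Several listed peroxidases are neighbours on a chromosome; whether close relatives share hybridisation was not tested. AT5G64100, AT5G64110 and PRX71 lie next to each other. In wild type their responses to TOLS2 were 0.02, −0.33 and 0.71, of which the last was called. On control arrays of rlk7-3 they lay at −0.28, −0.50 and −0.77 relative to wild type, and on those of puchi-2 at −0.30, −0.40 and −0.43, none called. For all 3 genes, the control arrays of each mutant lay below those of wild type without overlap. Over all probe sets, 9.46% did so in rlk7-3 and 6.73% in puchi-2. Both mutants were set against the same wild-type arrays. AT5G19880 and AT5G19890 had wild-type responses of 0.37 and −1.67, neither called. AT4G37520 and AT4G37530 responded by 0.41 and 0.23, AT2G38380 and AT2G38390 by 0.14 and −0.10, and AT5G58390 and AT5G58400 by −0.12 and −0.06, all without a call. AT4G37520 had signals of 5.38, 5.83 and 6.15 in wild type and 4.55, 5.11 and 5.27 in rlk7-3 with TOLS2 (−0.81, not called), and this difference was called without the replicate 1 arrays of all groups (−0.80, adjusted p = 0.00938). Without those arrays its wild-type response was called too (0.66, adjusted p = 0.0301).

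Genes that supply or remove the peroxide used by these enzymes were hardly represented. Of 10 NADPH oxidases 2 were measured, and of 11 catalases and ascorbate peroxidases 2, and none of the 4 was called in any comparison. UPB1, a transcription factor that represses peroxidase genes in the root tip, differed by 0.18 with TOLS2 in wild type, 0.05 in rlk7-3 and 0.54 in puchi-2, none called.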

How the data were processed

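Deposited values are log2 signals of probe sets, which the authors obtained by RMA per the submitters' processing notes and used as deposited. RMA shrinks differences of dim probe sets. Medians of the deposited values ran from 6.19 to 6.30 between arrays, so the arrays do not share 1 distribution. For the RMA software, the probe set definition and the build, versions are not stated in any source used. The table held 38408 rows, of which 17481 had at least 1 gene in the platform annotation, 16722 of them exactly 1. RefSeq genes (TAIR10.1) matched 16714 of these rows to a locus, 16574 of them by gene identifier. This match selected the probe sets of the listed genes and also gave names and gene order. No filter on dim rows was used. Array number limits the precision.

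Tests used R 4.3.3 and limma 3.58.1 (lmFit and eBayes on 6 group means, 18 arrays, 12 residual degrees of freedom), two-sided, adjusted by Benjamini-Hochberg over 17481 rows in each of 9 comparisons. The fit was run on simulated data with independent normal noise. That noise lacks the correlation between same-numbered arrays, so the run does not show how reliable the calls in these arrays are. Members and gene lists were chosen with earlier results of these data known. Full statistics go to called members, the 4 smallest p-values of each comparison, role groups, the brightest and dimmest, and neighbours.

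Replicate numbers come from the titles. Among groups compared directly, same-numbered deviations correlated over 0.1 in every pair for wild-type and puchi-2 TOLS2 arrays alone (0.348, 0.148 and 0.181). There no peroxidase was called with or without the block. In other comparisons the block changed calls, as given in the last section. Sequences of these genes were not used here.

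Alternatives were a second quantile normalization, centred arrays, an intensity trend with robust prior, array weights, a replicate block, brighter rows, all rows, another row for a gene, only the arrays compared, and leaving out arrays.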

Additional observations from a re-analysis of the deposited data

Results flagged for a closer look

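The TOLS2 responses of AT5G14130 and AT5G15180 differed between rlk7-3 and wild type by the test of the interaction itself. For AT5G14130 the difference of the log2 responses was −1.66 (adjusted p = 0.0299), from a rise of 1.70 in wild type and a value of 0.04 in rlk7-3. For AT5G15180 it was 0.77 (adjusted p = 0.0217), from −0.96 in wild type and −0.19 in rlk7-3. For both genes, wild-type signals with and without TOLS2 were fully separate. In rlk7-3 they overlapped for AT5G14130 and did not for AT5G15180. Over 21 alternative runs, the interaction call was lost in 10 for AT5G14130 and in 9 for AT5G15180.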

How the results depend on the processing

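No call of a named peroxidase changed direction under any alternative run for single genes, and 228 of 296 repeats of these calls kept their side of the threshold. Another row for a gene was tried for the counts only. Counts of called peroxidases stayed within 1.5 times the value given in 126 of 156 repeats. Repeats of a count of 0 that stayed at 0 are among the 126. This share therefore does not show how stable the counts above 0 are. In puchi-2 the 3 calls with TOLS2 became 5 with an intensity trend and robust prior, 5 with array weights, 6 with the replicate block, 6 over brighter rows, 1 without replicate 1 of all groups, and 0 in a fit of only the arrays compared, which has fewer samples. The 2 interaction calls for rlk7-3 became 1 with arrays centred on the median, where AT5G15180 was lost (adjusted p = 0.052). They also became 1 over all rows of the table, where more rows are tested and AT5G14130 was lost (adjusted p = 0.052). The 9 calls between rlk7-3 and wild type on TOLS2 arrays became 5 with only the arrays compared. Leaving out 1 array at a time gave 3 to 6 calls for wild type, 1 to 3 for puchi-2, 0 to 2 for the rlk7-3 interaction and 4 to 9 for rlk7-3 against wild type with TOLS2. With a group left at 2 arrays, the shared estimate of the spread was used. The replicate number as a block added PRX71 on rlk7-3 control arrays (adjusted p = 0.034), a count of 1 in place of 0, and gave 6 for wild type and 11 for rlk7-3 against wild type with TOLS2, where AT4G37520 (0.0359) and AT4G37530 (0.0499) were added. It also called AT2G22420 (0.0302), AT1G71695 (0.016) and AT2G37130 (0.0464) with TOLS2 in puchi-2, and AT1G71695 with TOLS2 in wild type (0.0094). Every same-numbered pair's correlation lay between −0.067 and 0.348, 22 of 45 above 0.1, and 39 of 45 were highest with their own number. Among all probe sets called between rlk7-3 and wild type on TOLS2 arrays, 54.3% were higher, against 32.5% after a second quantile normalization and 32.9% with centred arrays; for the interaction these shares were 28.4%, 13.4% and 13.0%. The cause was not tested. Dim peroxidases had wider intervals, and 1 of 23 was called in any comparison.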
